A study of Mus musculus with 12 samples.

Results

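The GATA factor and FOG genes were examined for BRG1 occupancy in wild-type mouse cardiac precursors (CPs), in the list of BRG1-binding regions deposited by the authors. The members were Gata2, Gata3, Gata4, Gata5 and Gata6, and the FOG genes Zfpm1 and Zfpm2, which made 7 of the 22367 protein-coding genes annotated on the autosomes, X and Y. A region was assigned to a member when it lay at a promoter (within 1000 bp of an annotated transcription start site, TSS), in the gene body or within 100 kb of either end of the gene. In all, 8 of the 3473 distinct regions in the list were found in this way, at Gata2, Gata4 and Gata5, and none was found for Gata3, Gata6, Zfpm1 or Zfpm2. BRG1 is the ATPase of BAF chromatin remodeling complexes, and ChIPseq recovers and sequences the DNA to which it is crosslinked. The CPs were wild type, of strain W4/129S6 at passage 15-20, and were derived from embryonic stem cells (ESCs) through embryoid bodies grown with VEGF, Activin and BMP4, followed by monolayer culture with FGFs. Behind the list stand 2 BRG1 ChIP libraries and an input library of these cells. The series has 9 further libraries, of cardiomyocytes and of lines without BAF170 or BAF60c, that were not analysed here. The number of rows in the list is the number of regions the study gives for CPs, but the number of distinct regions is the one it gives for wild-type cardiomyocytes, and the list was taken as named, for CPs. It holds positions and no RNA levels, so the labelled cell type could not be checked against marker transcripts.

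GATA factors are transcription factors with paired zinc fingers that bind DNA at the word GATA, and each gene has a restricted pattern of use in the embryo. GATA4, GATA5 and GATA6 act in heart and endoderm, whereas GATA2 and GATA3 are best known in blood, lymphoid, neural and placental lineages. FOG1 and FOG2, the products of Zfpm1 and Zfpm2, do not bind DNA on their own and act by contacting the amino-terminal zinc finger of a GATA factor, where they can recruit the NuRD complex or CtBP corepressors. FOG1 is a cofactor of GATA1 in blood, and FOG2 is a cofactor of GATA4 in heart and gonad.

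Of the 8 regions, 6 lay away from any annotated promoter and are the listed regions closest to Gata2, Gata4 and Gata5. Their sequences are given because the contrast between CpG-rich and CpG-poor regions, and the position of the few GATA words, can be read in them. They are the plus strand of mm9, 5′ to 3′. Capitals mark 3 GATA words (AGATAA, the same word with a first base of T, TGATAA, and the form GATAAG) and, for T-box factors, the word AGGTGTGA. Either strand was searched, so that a word on the minus strand appears as its reverse complement. The region upstream of Gata2 spans chr6:88139606-88139745. The central 300 bp of the CpG-rich region in the Gata4 intron is chr14:63874586-63874885, and the narrow region in the same intron is chr14:63888066-63888145. The distal pair upstream of Gata4 is at chr14:63978306-63978525 and chr14:63987966-63988045. The region upstream of Gata5 is chr2:180089706-180089845.
Gata2, 4.21 kb upstream: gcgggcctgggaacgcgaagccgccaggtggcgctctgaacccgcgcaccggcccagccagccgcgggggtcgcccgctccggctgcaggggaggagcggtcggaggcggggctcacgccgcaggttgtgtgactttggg
Gata4 intron, CpG-rich: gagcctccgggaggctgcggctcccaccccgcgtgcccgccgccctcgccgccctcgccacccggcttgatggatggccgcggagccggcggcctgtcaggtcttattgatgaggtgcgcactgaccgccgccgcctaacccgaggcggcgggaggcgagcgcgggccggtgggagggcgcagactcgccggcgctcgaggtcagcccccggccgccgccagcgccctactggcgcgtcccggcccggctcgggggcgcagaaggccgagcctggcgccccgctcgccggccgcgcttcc
Gata4 intron, narrow: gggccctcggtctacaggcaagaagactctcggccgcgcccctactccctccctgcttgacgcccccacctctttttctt
Gata4, 87.9 kb upstream: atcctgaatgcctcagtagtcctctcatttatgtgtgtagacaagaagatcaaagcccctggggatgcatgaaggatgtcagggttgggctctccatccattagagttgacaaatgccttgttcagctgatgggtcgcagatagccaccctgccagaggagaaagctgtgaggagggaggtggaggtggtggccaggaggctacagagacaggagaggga
Gata4, 97.5 kb upstream: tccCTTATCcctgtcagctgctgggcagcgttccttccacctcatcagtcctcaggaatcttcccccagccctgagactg
Gata5, 20.4 kb upstream: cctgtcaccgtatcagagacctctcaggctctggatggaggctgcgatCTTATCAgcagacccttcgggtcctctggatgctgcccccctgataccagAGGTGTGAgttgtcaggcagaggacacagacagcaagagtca

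None of the 7 members had a BRG1-binding region at a promoter. All 21 annotated TSS positions of the members, from 24 transcripts, lacked a region within 1000 bp. Over all protein-coding genes, 11.9% had a region at a promoter, so most genes share this result with the members. Regions in the gene body were found for Gata4 alone, which had 2, where 1.85% of protein-coding genes had at least 1 region in the body and 0.13% (29 genes) had 2 or more. With transcripts annotated as putative left out, Gata4 had 0 regions in its body, and these shares were not recomputed for that set. Within 100 kb, 3 of the 7 members had a region (42.9%), against 40.3% of protein-coding genes, a share near the background. The same 3 members had a region within 100 kb that lay at no promoter of any gene, against 9.75% of protein-coding genes. Since the list is a single set of positions with no value per library, these counts carry no replicate error and no test was made.

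**Figure D1:**
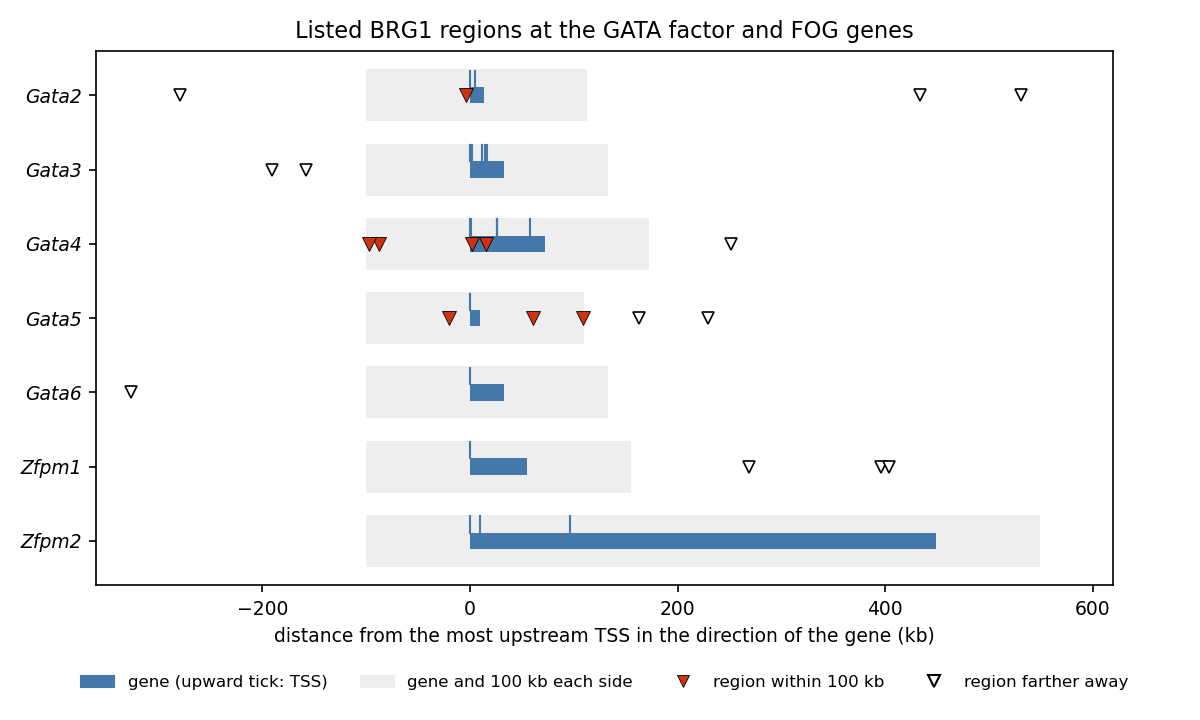
Listed BRG1-binding regions at the 7 loci. The x axis gives the distance in kb from the most upstream TSS of each gene, in the direction of transcription, blue bars are genes with a tick at each TSS, grey bands reach 100 kb past each end, red triangles are the 8 regions inside the bands and open triangles are regions outside them. Gata4 has 4 regions, Gata5 has 3, Gata2 has 1, and the bands of Gata3, Gata6, Zfpm1 and Zfpm2 are empty.

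Gata4, which encodes the GATA factor with an early and essential role in heart development, had the most regions of the members when all annotated transcripts were used, with 4 within 100 kb. It is ENSMUSG00000021944 and spans 72.8 kb of chromosome 14, between 63817759 and 63890529 (minus strand). A count of 4 or more regions within 100 kb was reached by 0.849% of protein-coding genes. All 4 regions lay at no promoter, which 13 genes (0.0581%) reached, and 1.17% of genes had 2 or more such regions. The 12 other genes were Gm20388, Gm17379, Mid1, Hoxb1, Hoxb2, Hoxb3, Hoxb4, Skap1, Odz4, Smad7, Sp2 and Tbx3. Of these, 6 (Hoxb1 to Hoxb4, Skap1 and Sp2) are on chromosome 11, and a region there can be counted for several of them.

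Of the regions at Gata4, 2 were intronic. The first spanned 380 bp from 63874546 to 63874925, and the second spanned 80 bp from 63888066 to 63888145. Both lay in intron 1 of the transcripts Gata4-004, Gata4-005 and Gata4-006, which is 29.3 to 29.9 kb long, and a gap of 13.1 kb separated them. The wider region was 10.6 kb upstream of the TSS at 63864108, from which the coding transcript Gata4-002 starts. The narrow region was 1.86 kb downstream of the TSS at 63889961, from which Gata4-004 and Gata4-005 start. With all annotated transcripts, it was the closest region to any TSS of the members.

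The placement of this pair inside the gene rests on the annotation. Gata4-003 to Gata4-006 are annotated as putative, and the introns that hold the regions belong to 3 of them. With putative transcripts left out, 3 transcripts remained, the 5′ end of Gata4 was at 63864108, and the intronic pair lay upstream of the gene. The distal pair then fell outside the 100 kb window, so Gata4 had 2 regions within 100 kb, 0 in its body, and was no longer among the genes with 4. Gata5, with 3, then had more regions than Gata4.

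The distal pair lay between genes, upstream of every Gata4 TSS. A 220 bp region from 63978306 to 63978525 was 87.9 kb from the most upstream TSS of Gata4 at 63890529, and an 80 bp region from 63987966 to 63988045 was 97.5 kb from it, just inside the window. From the TSS at 63864108 they were 114 and 124 kb away. A gap of 9.44 kb separated them. They were closer to the TSS of Blk, which encodes a Src-family kinase of B cells, at 57.6 and 48 kb. The next region beyond the window of Gata4 was 179 kb from the other end of the gene, was 860 bp wide and lay between genes.

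**Figure D2:**
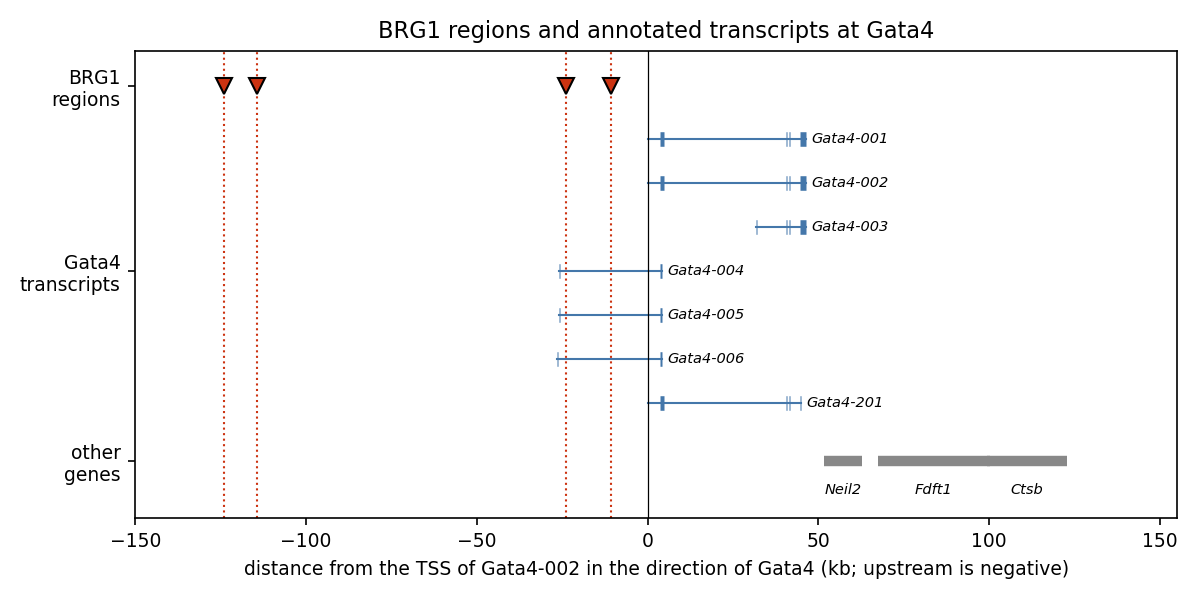
The Gata4 locus. The x axis gives the distance in kb from the TSS of Gata4-002 in the direction of Gata4, with upstream negative, thick blue marks are exons, thin blue lines are introns, grey bars are other genes and red triangles with dotted lines are the 4 BRG1-binding regions. All 4 regions are upstream of the TSS of Gata4-002, and 2 of them cross the long first intron of Gata4-004, Gata4-005 and Gata4-006.

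Gata5, another GATA factor of heart and endoderm, had 3 regions within 100 kb, of which 1 lay between genes and 2 were at promoters of other genes. It is ENSMUSG00000015627, between 180059838 and 180069404 of chromosome 2 (minus strand). The region between genes spanned 140 bp from 180089706 to 180089845 and was 20.4 kb upstream of the Gata5 TSS at 180069404. That TSS was the nearest to it of any gene in GENCODE M1, and Gm14318 was next at 22.2 kb. The TSSs of the cardiac and skeletal muscle microRNAs Mir1a-1 and Mir133a-2 were 34 and 43.3 kb from it.

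Downstream of Gata5, a region of 1200 bp from 180007786 to 180008985 lay at the promoter of Cables2, which encodes a Cdk5 and Abl substrate protein, and was 60.9 kb from the nearest Gata5 TSS. It was wider than 93.5% of all regions. Another, of 500 bp from 179960386 to 179960885, lay at the promoter of Lama5, which encodes the laminin alpha-5 chain, 109 kb from the nearest Gata5 TSS and 99 kb from the end of the gene. With the window set at 100 kb from the TSSs instead of the gene ends, this region was left out. The next region, outside the window, was at the Adrm1 promoter, 153 kb from Gata5.

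Gata2, required for blood stem and progenitor cells, had 1 region, 4.21 kb upstream of its TSS at 88143885. The gene is ENSMUSG00000015053, between 88143885 and 88157024 of chromosome 6 (plus strand). The region spanned 140 bp from 88139606 to 88139745, lay between genes and was 8.98 kb from the other Gata2 TSS at 88148658. In GENCODE M1 the next nearest gene was Dnajb8, whose TSS was 32.6 kb away, but RefSeq TSSs of Gm38708, matched by sequence to mm9, lay closer, at 88147377 to 88148278 on the minus strand. None of the 3 protein-coding neighbours of Gata2 within 100 kb had a region at a promoter. The region just outside the window was 280 kb from Gata2.

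Gata3, which directs T cell and sympathetic neuron development, had no region within 100 kb. It is ENSMUSG00000015619, between 9778705 and 9811661 of chromosome 2 (minus strand). Its nearest region was 158 kb upstream, spanned 560 bp from 9969586 to 9970145 and lay at a promoter of Taf3, which encodes a subunit of the general factor TFIID. The window of Gata3 included part of the span of Taf3 but not that promoter region.

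Zfpm1 (ENSMUSG00000049577) lies between 124806039 and 124861146 of chromosome 8 (plus strand). Its nearest region was 269 kb downstream of its TSS and 214 kb from the end of the gene, spanned 860 bp from 125074686 to 125075545 and lay at a promoter of Fam38a, which encodes the mechanosensitive channel PIEZO1. The 7 protein-coding neighbours of Zfpm1 within 100 kb, the most of any member, had no region at a promoter. One of them is Gm20388, a model of 4435 kb that spans Zfpm1. Zfpm2 (ENSMUSG00000022306) lies between 40486588 and 40936138 of chromosome 15 (plus strand) and is the longest member at 450 kb. No region fell in this body or within 100 kb of it, and the nearest, of 300 bp from 41620606 to 41620905 at a promoter shared by Oxr1 and Gm16718, was 1037 kb from the nearest Zfpm2 TSS and 684 kb from the end of the gene.

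Gata6, a partner of Gata4 in early heart and endoderm development, also had no region within 100 kb. It is ENSMUSG00000005836, between 11052508 and 11085633 of chromosome 18 (plus strand), with 1 annotated TSS. The nearest region was 327 kb upstream, was 820 bp wide and lay at the promoter of Mib1, which encodes an E3 ligase of Notch signalling. It was on 2 rows of the list, whereas each of the 8 regions near members was on 1 row.

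Distances from the nearest own TSS to the midpoint of the nearest region were 1.86 kb for Gata4, 4.21 kb for Gata2, 20.4 kb for Gata5, 158 kb for Gata3, 269 kb for Zfpm1, 327 kb for Gata6 and 1037 kb for Zfpm2. Over 22350 protein-coding genes the median was 166 kb, with quartiles of 46.3 and 533 kb. Gata4, Gata2 and Gata5 thus had a region closer than the lower quartile, with 12.2%, 12.7% and 17.1% of genes having a closer region. The value for Gata4 rests on the TSS of putative transcripts. With these left out, its nearest region was 10.6 kb away, with 14.4% of 22019 genes closer, and Gata2 was the member with the nearest region. Gata3 was near the median, with 48.8% of genes closer. The values for Zfpm1, Gata6 and Zfpm2 were 60.9%, 65% and 85.8%, and only Zfpm2 was past the upper quartile.

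**Figure D3:**
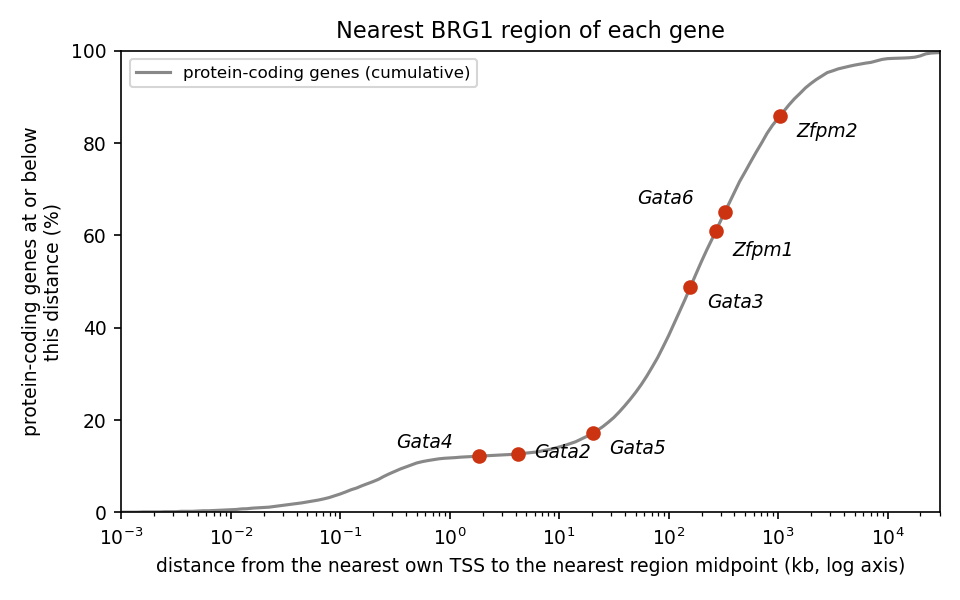
Distance of each gene to its nearest BRG1-binding region. The x axis gives the distance in kb from the nearest own TSS to the midpoint of the nearest region on a log scale, the y axis gives the percent of protein-coding genes at or below that distance, the grey line is the cumulative curve over 22350 genes and red points are the 7 members. Gata4, Gata2 and Gata5 sit on the low plateau at 12.2% to 17.1%, and the other 4 members sit between 48.8% and 85.8%. The point of Gata4 uses a TSS of putative transcripts.

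Neighbouring genes bear on these counts, since a region at the promoter of a neighbour is counted within 100 kb of a member. Gata6 and Zfpm2 had no protein-coding neighbour within 100 kb, and of the 1042 genes with none, 18.7% had a region within 100 kb. Gata2, Gata3 and Gata4 had 3 neighbours each and Gata5 had 5, a class of 3 to 6 neighbours in which 43% of 9708 genes had a region. Zfpm1, with 7, was in a class in which 43.6% of 6852 genes had a region. At Gata5, 2 of its 3 regions were at neighbours' promoters, while at Gata2 and Gata4 none was.

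The 8 regions differed widely in sequence composition. GC content was 76.4% in the Gata2 region and 78.4% in the 380 bp Gata4 intronic region. It was 63.8% in the narrow intronic region, 53.2% and 58.8% in the distal Gata4 pair, and 57.1% in the Gata5 upstream region. The Lama5 and Cables2 promoter regions were at 71.6% and 66.5%. The ratio of observed to expected CpG, which is near 1 in unmethylated CpG islands and low in bulk mouse DNA, was 0.90 in the Gata2 region and 1.00 in the 380 bp Gata4 intronic region, which held 58 CpG. It was 0.71 in the narrow intronic region, 0.26 in the Gata5 upstream region, and 0.07 and 0.17 in the distal Gata4 pair, with 1 CpG in each.

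As listed, the Gata2 and 380 bp Gata4 regions thus had the composition of promoter regions while lying away from annotated promoters. Among the 907 regions of the list away from promoters, where the median GC content was 54.5% and the median CpG ratio 0.28, 92.4% had a lower GC content than the Gata2 region and 95.6% had a lower one than the Gata4 region. Among the 2566 regions at promoters, with medians of 74.1% and 0.90, 84.4% were lower than the Gata4 region. A GC content of 70% or more was found in 2 of the 6 member regions away from promoters (33.3%), in 19.4% of all regions away from promoters and in 76.3% of those at promoters. The next highest of the 6 was at 63.8%, so this count restates the 2 regions just described and adds no separate evidence. In 500 bp around the midpoint, GC content was lower, at 66.2% for the Gata2 region and 73.8% for the 380 bp Gata4 region. Their CpG ratios were then 0.90 and 0.97.

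The median width of the 8 regions near the members was 180 bp, near the 200 bp of regions away from promoters, the class of 6 of them. It was 420 bp for regions at promoters and 360 bp over all distinct regions. The narrow intronic region and the farther distal region of Gata4 were 80 bp wide, and 8.93% of regions away from promoters were 80 bp or narrower. All 8 were on 1 row of the list, as were 77.2% of all distinct regions and 88.5% of those away from promoters.

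**Figure D4:**
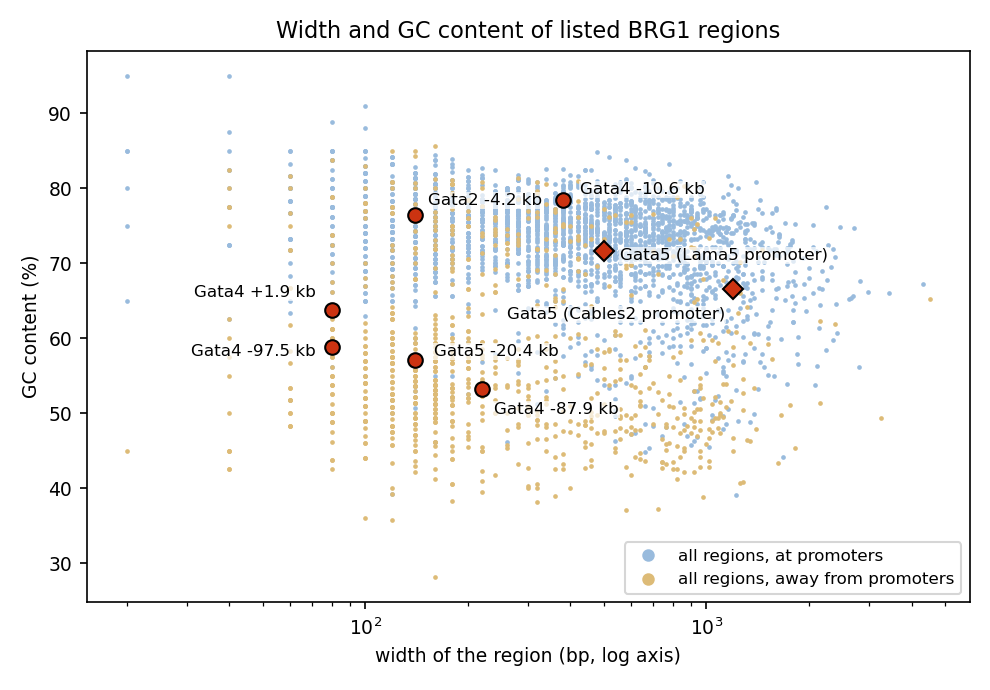
Width and GC content of listed BRG1-binding regions. The x axis gives the width in bp on a log scale, the y axis gives the GC content in percent, blue and tan points are the 2566 regions at promoters and the 907 away from them, and red marks are the 8 regions near members, labelled with the distance in kb to the nearest own TSS (upstream negative) or with the promoter at which they lie. The Gata2 region at 76.4% and a Gata4 region at 78.4% sit among the promoter regions, and the distal Gata4 pair and the Gata5 region at 57.1% sit among the regions away from promoters.

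GATA words were counted on both strands, with the 6 member regions away from promoters set against the 907 regions of that class. The distal Gata4 pair is among the 6 only through putative transcripts. The shares with a word and the values of width and GC content were not recomputed without this pair. The word AGATAA was in 0 of the 6 (95% Wilson interval 0 to 39%) and in 24.9% of the class. TGATAA was in 1 of the 6 (16.7%) and in 18.6% of the class, and GATAAG was in 2 of the 6 (33.3%) and in 21.7%. The Lama5 and Cables2 promoter regions held none of these words. The interval covers counting error only, and 6 regions are too few to set these shares apart from those of the class. It also treats the 6 as independent, although 4 of them are at Gata4.

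The 2 regions with a GATA word can be read in the sequences above. In the Gata5 region 20.4 kb upstream, TGATAA began at base 50 and overlapped GATAAG at base 49, both on the minus strand. The same region held the T-box word AGGTGTGA at base 99 on the plus strand. A region with AGATAA or, in its place, TGATAA together with the T-box word was found 16 times in the list (0.461% of all distinct regions), and 12 of these were away from promoters (1.32% of that class). In the Gata4 region 97.5 kb upstream, GATAAG began at base 4 on the minus strand, close to the edge of the region. The E-box word CAGCTG was in both distal Gata4 regions, 2 of the 6 (33.3%) against 25.8% of regions away from promoters, and in the Cables2 promoter region. The GC-box word GGGCGG had 2 copies in the 380 bp Gata4 region, the only one of the 6 with it (16.7%, against 26.1% of regions away from promoters). The Lama5 and Cables2 promoter regions had 4 and 6 copies, and 80.5% of promoter regions held the word. CATCTG and TGACTCA were in 0 of the 8, against 14.3% and 3.71% of all distinct regions. They were thus in 0 of the 6 away from promoters, against 23.8% and 6.17% of that class.

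Because a wider region has more room for a word, the count was repeated in 500 bp around each midpoint. AGATAA was then in 2 of the 6 regions away from promoters (33.3%), the 87.9 kb region of Gata4 and the 20.4 kb region of Gata5, against 33.8% of the class. TGATAA was in 3 of the 6 (50%), against 24%, and GATAAG was in 3 of the 6 (50%), against 29%. Over all 8 regions, 4 (50%) held AGATAA or, in its place, TGATAA, against 17.7% of all distinct regions. All 4 were among the 6 away from promoters, a class in which 48.2% held either word. AGGTGTGA was in the same 2 regions as AGATAA, so that AGATAA or, in its place, TGATAA occurred with it in these 2. Both are among the 6 away from promoters, a class in which 1.98% held the pair, against 0.662% of all distinct regions. AGGTGTGA was added after its values were seen, so the count of the pair is a description and was not tested. The 87.9 kb region is within 100 kb of Gata4 only when putative transcripts are used. The Gata2 region and the 380 bp Gata4 region held neither GATA words nor AGGTGTGA at either width.

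The TSSs of the members were also described by composition, in 1000 bp around each. The single TSS of Zfpm1 had a GC content of 75.2% and a CpG ratio of 0.97. The Gata2 TSSs had GC contents of 68% and 64.8% and CpG ratios of 0.77 and 0.68. For Gata5 the values were 66% and 63.1%, with ratios of 0.74 and 0.69, and for Gata6 63.1% and 0.66. Gata4 had 61.7% and 0.66 at the TSS of Gata4-002, but 52.7% and 0.17 at the upstream TSS of Gata4-004. The Gata3 TSSs were between 46.9% and 54.5% GC, with ratios of 0.15 to 0.64. Zfpm2 had 66.5% and 0.70 at its most upstream TSS and low values at the other pair, with 33.9% and 0.21, and 35.9% and 0.28.

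TSSs with a region were CpG-rich as a class. The 6927 TSSs of protein-coding genes with a region within 1000 bp had a median GC content of 65.1% and a median CpG ratio of 0.83, and the 63104 without had medians of 53.3% and 0.39. By CpG ratio, 0.27% of TSSs below 0.25 had a region, 1.58% from 0.25 to 0.5, 10.2% from 0.5 to 0.75, 27.9% from 0.75 to 1.0 and 47.5% from 1.0. Of the 21 member TSSs, 6 were in the lowest class, 4 in the next, 9 in the class from 0.5 to 0.75 and 2, of Gata2 and Zfpm1, in the class from 0.75 to 1.0. Not all are separate promoters, since the 1000 bp stretches of close TSSs overlap, such as those of Gata4 at 63864085, 63864097 and 63864108. Zfpm1 had a higher CpG ratio than 86.3% of the TSSs that had a region. Transcript use in these cells is not given by the list, and its part in the lack of promoter regions was not tested.

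**Figure D5:**
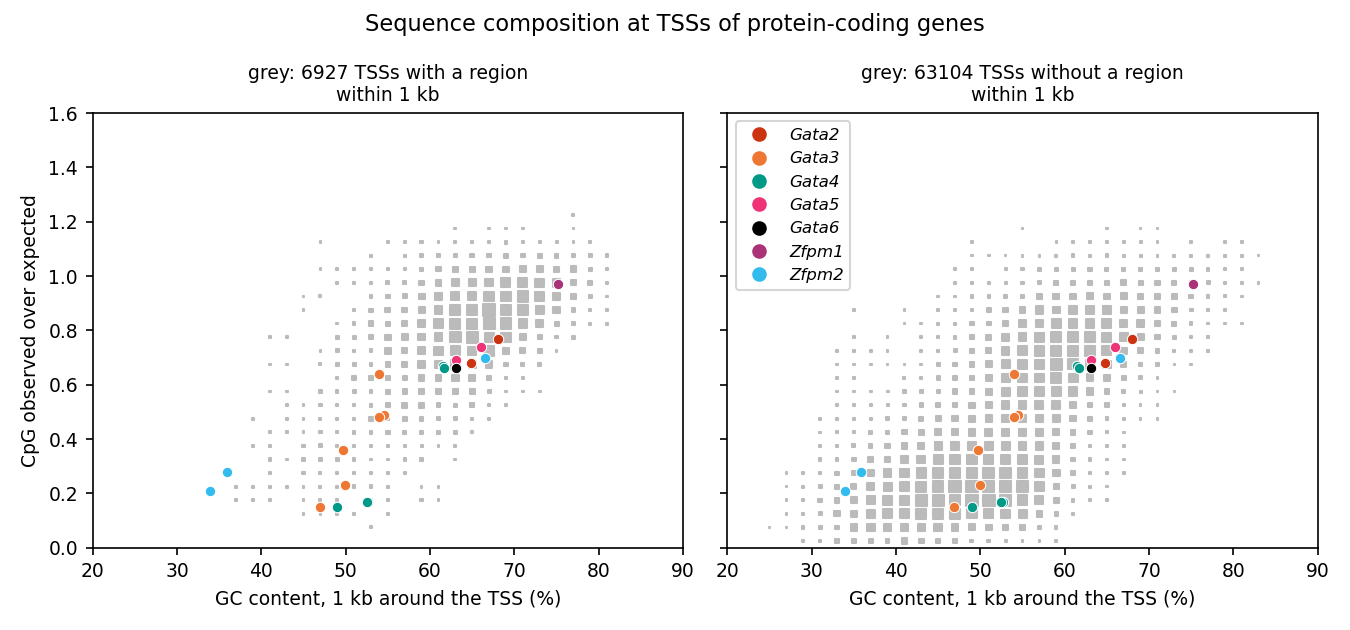
Sequence composition at TSSs of protein-coding genes. The x axes give the GC content in percent of 1000 bp around the TSS and the y axes the ratio of observed to expected CpG, grey squares scale with the number of TSSs with a region within 1000 bp (left, 6927) and without one (right, 63104), and coloured points are the 21 TSSs of the 7 members, which are the same in both panels. Zfpm1 at 75.2% GC and 0.97 lies at the CpG-rich end, while TSSs of Gata3, Gata4 and Zfpm2 reach down to a ratio of 0.15.

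Sequence at these loci was mostly unique in mm9 at 75 bp, the read length of the study before trimming. Placement of the reads themselves was not examined. In the promoters of the members, 99.6% to 100% of 75 bp words occurred once in mm9, and in the 100 kb windows 95.3% (Gata6) to 99.6% (Zfpm1) did so, against 91.4% on a grid over the genome. For 4 members (Gata2, Gata3, Gata5 and Zfpm1), RefSeq promoter sequences were matched exactly to mm9, and none of their 5 TSSs had a region within 1000 bp. These TSSs were the same as, or close to, GENCODE M1 TSSs already counted, so this count adds no separate evidence.

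Genes of proteins that work with GATA and FOG factors were counted in the same way, against 11.9% of protein-coding genes with a promoter region and 40.3% with a region within 100 kb. Of 10 relatives with GATA-type zinc fingers, 1 had a promoter region, which was Rere, and 6 had a region within 100 kb. Rere also had a region in the body. Gata1, the main blood GATA factor and absent from the members, had its nearest region at 884 kb. Of 15 genes of NuRD and CtBP, the corepressors that FOG proteins recruit, 3 had a promoter region and 11 had a region within 100 kb. These were Chd3, which encodes a NuRD helicase, Hdac2, which encodes a histone deacetylase, and Ctbp2. Both lists hold Mta1, Mta2, Mta3, Gatad2a and Gatad2b.

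Of 14 genes of GATA partners in heart, 5 had a promoter region (11.9% of all protein-coding genes had one), namely Srf and Isl1, which encode DNA-binding factors, Smad1 and Smad4, which encode mediators of BMP signalling, and Ep300, which encodes a histone acetyltransferase. In this list 11 genes had a region within 100 kb, where 40.3% of protein-coding genes did, with a median distance of 5.75 kb to the nearest. In the body, 2 of the 14 had a region, where 1.85% of protein-coding genes did. These were Nkx2-5, with a region 1.99 kb from its TSS, and Smad4, in addition to its promoter region. Of 10 partners in blood, 3 (Ldb1, Tcf3 and Runx1) had a promoter region, Tal1 had a body region, and 5 had a region within 100 kb. Of 12 genes known as GATA targets in heart, 0 had a promoter region and 7 had a region within 100 kb, with a body region in Bmp4. The median distances were 158 kb for the members, 86 kb for the zinc finger relatives, 48 kb for the corepressors, 109 kb for the blood partners and 80.3 kb for the heart targets, against 166 kb over all genes. With 7 to 15 genes in a list, these counts are descriptions, and the lists were not compared by a test.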

How the data were processed

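BRG1 ChIPseq of wild-type CPs was analysed from the list the authors deposited. Per the methods of the study, cells were crosslinked with disuccinimidyl glutarate and formaldehyde, chromatin was digested with MNase, and single-end reads were trimmed with fastq-mcf, aligned to mm9 with Bowtie, filtered on mapping quality and used to call bins enriched over input. The deposited values are positions in bp (chromosome, start and end), with no height, fold or P-value. How the 2 ChIP libraries were combined is not given in the sources used here. The depth is unknown, and a locus without a region may be unbound or under the threshold. The rows match in number the regions the study gives for CPs, and the distinct regions match the number it gives for wild-type cardiomyocytes. How these lists relate was not tested, and the list was used as named, for CPs.

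The list has 4791 rows, all on a grid of 20 bp, for 3473 distinct regions with a smallest gap of 1040 bp. Each was counted once. Positions were set against the NCBIM37 (mm9) sequence and GENCODE M1 with Python 3.11.15, numpy 2.4.6 and pysam 0.24.0. A region was classed as promoter, then body, then flank. Distances run from a TSS to the midpoint of a region. Promoter sequences of RefSeq (GRCm38.p6) were matched by sequence to mm9. The steps were tested on simulated positions and sequences. No hypothesis test was made, as the list has no value per library.

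All 7 members are named, with their regions, the genes at whose promoters these lie, and genes of the lists with a promoter region. Genes with a body region only (Nkx2-5, Tal1 and Bmp4), Gata1, the neighbours named for distance, the genes with 4 or more regions, and the words other than the 3 GATA words were added after their values were seen. The members and lists were chosen with earlier results of these data known. Kmt2d and Spi1 were matched as Mll2 and Sfpi1. Alternatives were other promoter and window sizes, other transcript sets, row counts, merging of regions and other words.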

Additional observations from a re-analysis of the deposited data

How the results depend on the processing

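Of 46 alternatives over 11 results, 38 planned and 8 chosen after seeing the data, 35 stayed within limits and 11 moved. The limits were 1.5 times for a count, the 95% Wilson interval for a share, and equality for other values. With 8 regions the interval is wide, so the share with AGATAA, 0%, counted as unmoved at 12.5% (TGATAA, alone or with AGATAA) and at 25% (GATAAG, or AGATAA in 500 bp). Several of the 35 could not have moved. A promoter count of 0 could not rise with narrower promoters, region midpoints or fewer transcripts. Member counts by rows were fixed because each of the 8 regions was on 1 row. Merging regions across gaps of up to 5 kb was fixed too, since the smallest gap next to any of the 8 was 9.44 kb. The RefSeq TSSs were at or close to those already counted. With promoters of 2 kb either side of the TSS, 1 region of 1 member (Gata4) was counted at a promoter, and with 5 kb, 2 regions of 2 members (Gata4 and Gata2). The Gata4 region was counted only through TSSs of putative transcripts. By distance from TSS to region midpoint, 12.2% of protein-coding genes had a region within about 2 kb and 12.9% within about 5 kb. Windows of 50 kb left 4 of the 8 regions, and windows of 200 kb gave 12, at the limit. With transcripts annotated as putative left out, 0 regions were in member bodies, Gata4 had 2, the members had 6, and the nearest region of Gata4 was 10.6 kb from a TSS, against 1.86 kb. Over all annotated genes in place of protein-coding ones, 7.93% had a promoter region and 35.4% had a region within 100 kb. In 500 bp around each midpoint the median GC content was 60.5%, against 65.1% as listed. No paired analysis was possible because replicates have no values of their own in a list of positions. For the same reason no replicate could be left out, no stricter threshold could be set, and the strength of occupancy could not be ranked. Depth is unknown, so regions below the threshold of the list cannot be told apart from unbound ones.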
